A study of Homo sapiens with 8 samples.

Results

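The genes described here are 46 genes of mitosis and DNA replication, read on arrays of NS-SV-AC, a human line immortalised from salivary acinar cells, which secrete the saliva. They were chosen by name, 23 that act in or drive mitosis and 23 that prepare or carry out replication. The choice was made with earlier results of these data known. The platform's annotation gave them 118 of the 45253 probe sets with a single gene symbol, and all 46 were among the 18239 genes measured. Each was read from its brightest probe set, the one with the highest mean over the 8 arrays. No filter on low values was applied, 31 had more than 1 probe set, and BIRC5 had the most with 12. On that probe set 45 lay above the median of all genes and MCM5, with 1 probe set, lay below it.

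Cells were given either TNF-a, an inflammatory cytokine, at 20 ng/ml, or bovine serum albumin (BSA), which stood as the control. Total RNA was taken after 2, 6, 12 and 24 h from each arm, and 10 ng of it went onto each array. There was 1 array for each treatment and time, 4 per arm, so no single treatment and time has a replicate. All arrays share 1 cell line, and the labels name no separate cultures, so p-values measure only the spread of these arrays about the fitted model. That spread may be technical. With time as a factor it also holds any TNF-a effect that changes with time, and with slopes any departure from a straight line. A gene with such an effect can therefore fail the test. In bulk RNA, fewer dividing cells and less transcript per dividing cell cannot be told apart.

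A cell that commits to division first makes cyclins D and E, which with their kinases free the E2F factors from RB and let the replication genes be transcribed. Origins of replication are then licensed by CDC6, CDT1 and the MCM helicase, and fired with the help of CDC45 and the GINS complex. Mitotic genes such as CCNB1, PLK1 and CDC20 are switched on later, by MYBL2 and FOXM1, and held down outside G2 and mitosis by the DREAM complex. The groups therefore mark different parts of the cycle, and they are given apart.

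The promoters of these genes carry different short sequences, and a few are shown because their genes lead the results below. RefSeq windows on GRCh38.p14, from 250 bases before to 50 after the start of transcription, were found for 18 of 23 mitotic genes and 19 of 23 replication genes, with 20 and 25 windows. A set of 3 elements was searched on both strands. The cell cycle genes homology region (CHR; TTTGAA and its variant TTCGAA), which DREAM and its activating partners bind, was in 65.0% of the mitotic windows, 8.0% of the replication windows and 16.4% of all 35116 windows of that length. The E2F letters TTNNCGC, with C or G at each N, were in 20.0% of the mitotic windows, 64.0% of the replication windows and 13% of all windows. CCAAT, the box bound by NF-Y, was in 85% of the mitotic, 64.0% of the replication and 34.6% of all windows. In 2 of the 45 windows a match of one element overlapped a match of another. A match describes letters in a window and is not a shown binding site. Windows of AURKA, BIRC5, CCND1, CCNE2, FOXM1, MCM4, MCM5, TPX2 and TTK are not used here.

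Below, 200 bases are given 5′ to 3′ for 7 genes, 170 before and 30 after the start, in lower case with the matches of the 3 elements in capitals. KIF20A and CDC20 had the largest differences of 24 h from 2 h in the BSA arm, MKI67, BUB1 and RFC4 moved at 6 h, CDT1 had the largest TNF-a difference of the replication genes at 6 h, and MCM6 was low at 24 h. They lie at chr1:43358811-43359010, plus strand (CDC20), chr5:138178942-138179141, plus (KIF20A), chr10:128126394-128126593, minus (MKI67), chr2:110678034-110678233, minus (BUB1), chr3:186806453-186806652, minus (RFC4), chr16:88803619-88803818, plus (CDT1), and chr2:135876414-135876613, minus (MCM6).
CDC20: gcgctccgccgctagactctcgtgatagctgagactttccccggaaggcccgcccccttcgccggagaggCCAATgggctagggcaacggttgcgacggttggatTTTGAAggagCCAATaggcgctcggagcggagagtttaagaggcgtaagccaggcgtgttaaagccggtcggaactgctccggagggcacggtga
KIF20A: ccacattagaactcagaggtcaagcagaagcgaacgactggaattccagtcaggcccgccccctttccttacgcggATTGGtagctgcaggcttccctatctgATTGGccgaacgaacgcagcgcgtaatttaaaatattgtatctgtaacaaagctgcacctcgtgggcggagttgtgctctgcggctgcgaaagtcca
MKI67: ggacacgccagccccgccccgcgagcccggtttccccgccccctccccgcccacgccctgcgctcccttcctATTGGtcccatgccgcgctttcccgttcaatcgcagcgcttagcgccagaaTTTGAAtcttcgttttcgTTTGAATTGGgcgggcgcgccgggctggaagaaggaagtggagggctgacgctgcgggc
BUB1: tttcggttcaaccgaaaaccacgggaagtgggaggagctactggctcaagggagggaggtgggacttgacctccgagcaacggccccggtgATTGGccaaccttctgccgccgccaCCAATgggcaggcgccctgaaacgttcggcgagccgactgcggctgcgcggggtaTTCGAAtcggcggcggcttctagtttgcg
RFC4: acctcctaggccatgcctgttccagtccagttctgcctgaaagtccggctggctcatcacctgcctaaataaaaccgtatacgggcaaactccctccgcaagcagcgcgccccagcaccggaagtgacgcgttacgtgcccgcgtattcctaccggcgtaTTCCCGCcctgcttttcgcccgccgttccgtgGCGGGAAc
CDT1: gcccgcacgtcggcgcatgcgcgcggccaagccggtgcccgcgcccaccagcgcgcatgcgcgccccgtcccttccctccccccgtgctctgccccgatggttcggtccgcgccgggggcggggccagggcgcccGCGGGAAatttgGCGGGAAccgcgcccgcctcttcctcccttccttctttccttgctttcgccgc
MCM6: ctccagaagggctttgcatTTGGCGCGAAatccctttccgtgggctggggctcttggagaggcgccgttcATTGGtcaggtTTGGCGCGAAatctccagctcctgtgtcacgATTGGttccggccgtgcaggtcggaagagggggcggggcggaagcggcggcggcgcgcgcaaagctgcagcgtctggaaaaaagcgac
CDC20 and MKI67 hold CHR and CCAAT matches and no E2F match in these bases, BUB1 likewise, and KIF20A holds CCAAT alone. RFC4 and CDT1 hold E2F matches alone, and MCM6 holds E2F and CCAAT. In MKI67 the second CHR and a CCAAT match share bases, and in MCM6 each pair of E2F matches overlaps.

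The arrays carried the labelled treatment, but 1 of them stood apart. NFKBIA, an NF-κB target and inhibitor, was 3.12 to 3.43 higher with TNF-a than with BSA at the 4 times, and TNFAIP3, another such target, 6.11 to 7.87 higher (log2, as are all levels and differences). On the TNF-a array at 24 h GAPDH had a gap of 6.28 between its 3′ and 5′ probe sets, where 7 arrays had gaps of 0.20 to 0.37, and its mean correlation with the others across genes was 0.925 against 0.968 to 0.978. Values are therefore also given without the 24 h arrays. Of the acinar markers, AQP5, MUC7, STATH, PRB1, PRH2 and BHLHA15 lay between 2.80 and 4.18 on every array, below the medians of all probe sets on the arrays, 4.33 to 4.36, and SLC12A2 lay between 7.0 and 8.06. KRT8 and KRT18 were 8.59 or higher on the 6 arrays from 2 to 12 h, while EPCAM, CDH1 and KRT19 did not exceed 4.37. COL3A1, a collagen and 1 of 4 fibroblast markers measured, was at 8.91 to 9.93. PTPRC, 1 of 3 leukocyte markers, and CDH5, 1 of 3 endothelial markers, were at 3.46 or less. The other markers of these lists, and the basal or myoepithelial list, are not given. No cell type is read as present or absent from a single marker of a list. The acinar secretory markers on the list were thus near the floor, apart from SLC12A2.

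With TNF-a the mitotic genes read slightly lower than with BSA from 2 to 12 h, and no single gene passed the test. The median over the 23 was −0.15, −0.28 and −0.20 at 2, 6 and 12 h, where the medians of all genes were −0.02, −0.01 and −0.00. Lower values were seen for 21, 20 and 19 of the 23, against 10402, 9667 and 9272 of the 18239 genes. At 2, 6 and 12 h alike, 17 of 23 were lower, against 22.4% of all genes. None of the 46 was 2-fold apart at these times, where 0.537%, 1.77% and 2.13% of all genes were.

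PLK1, FOXM1 and CDC20 had the largest mitotic differences at 6 h. PLK1, a kinase that drives entry into mitosis, was 5.23, 5.36, 5.65 and 4.98 with TNF-a at 2, 6, 12 and 24 h, and 5.53, 5.95, 5.68 and 4.71 with BSA. FOXM1, a transcription factor of G2 and mitotic genes, was 7.78, 7.78, 7.99 and 4.92 with TNF-a and 8.02, 8.33, 8.23 and 7.48 with BSA. Both were lower with TNF-a at 2, 6 and 12 h, by 0.30, 0.59 and 0.03 for PLK1 and by 0.24, 0.55 and 0.24 for FOXM1. CDC20, which activates the anaphase-promoting complex, was 8.94, 8.81, 9.22 and 7.01 with TNF-a and 9.18, 9.36, 9.42 and 7.60 with BSA. It was lower with TNF-a at all 4 times. CCNB1, the mitotic cyclin B1, was 9.81, 9.99, 10.22 and 7.24 with TNF-a and 9.97, 10.30, 10.30 and 9.07 with BSA. CDK1, the kinase that cyclin B1 activates, was 9.66, 9.18, 9.28 and 9.35 with TNF-a and 9.66, 9.50, 9.73 and 8.87 with BSA. CCNB1 and CDK1 were lower with TNF-a at 6 h by similar amounts, 0.31 and 0.32.

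KIF20A and KIF11 are motors of the spindle. KIF20A, of the central spindle, was 8.70, 8.23, 8.59 and 6.33 with TNF-a and 8.87, 8.74, 8.98 and 6.15 with BSA. KIF11, which pushes spindle poles apart, was 9.16, 8.64, 8.88 and 9.54 with TNF-a and 9.33, 8.91, 9.47 and 8.69 with BSA. Averaged over 2, 6 and 12 h these were the most negative of the mitotic differences, −0.35 for each. CENPF, a kinetochore protein, and KIF23, another central spindle kinesin, were lower by 0.64 and 0.36 at 12 h. MKI67, the proliferation marker Ki-67, ran the other way at 6 and 12 h, higher by 0.11 and 0.09 on its brightest probe set. Its 6 probe sets disagreed, with differences from −0.51 to 0.22 at 6 h and from −0.68 to 0.09 at 12 h, and 4 of the 6 were lower at 12 h. MYBL2, the MuvB partner that precedes FOXM1, differed by 0.03, −0.25 and 0.04 at 2, 6 and 12 h. MYBL2 was 7.85, 8.06, 7.85 and 5.35 with TNF-a and 7.82, 8.31, 7.80 and 7.71 with BSA. Apart from MKI67 and MYBL2, the genes not lower at all 3 times were CENPE, TPX2, BUB1 and NUSAP1.

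**Figure D1:**
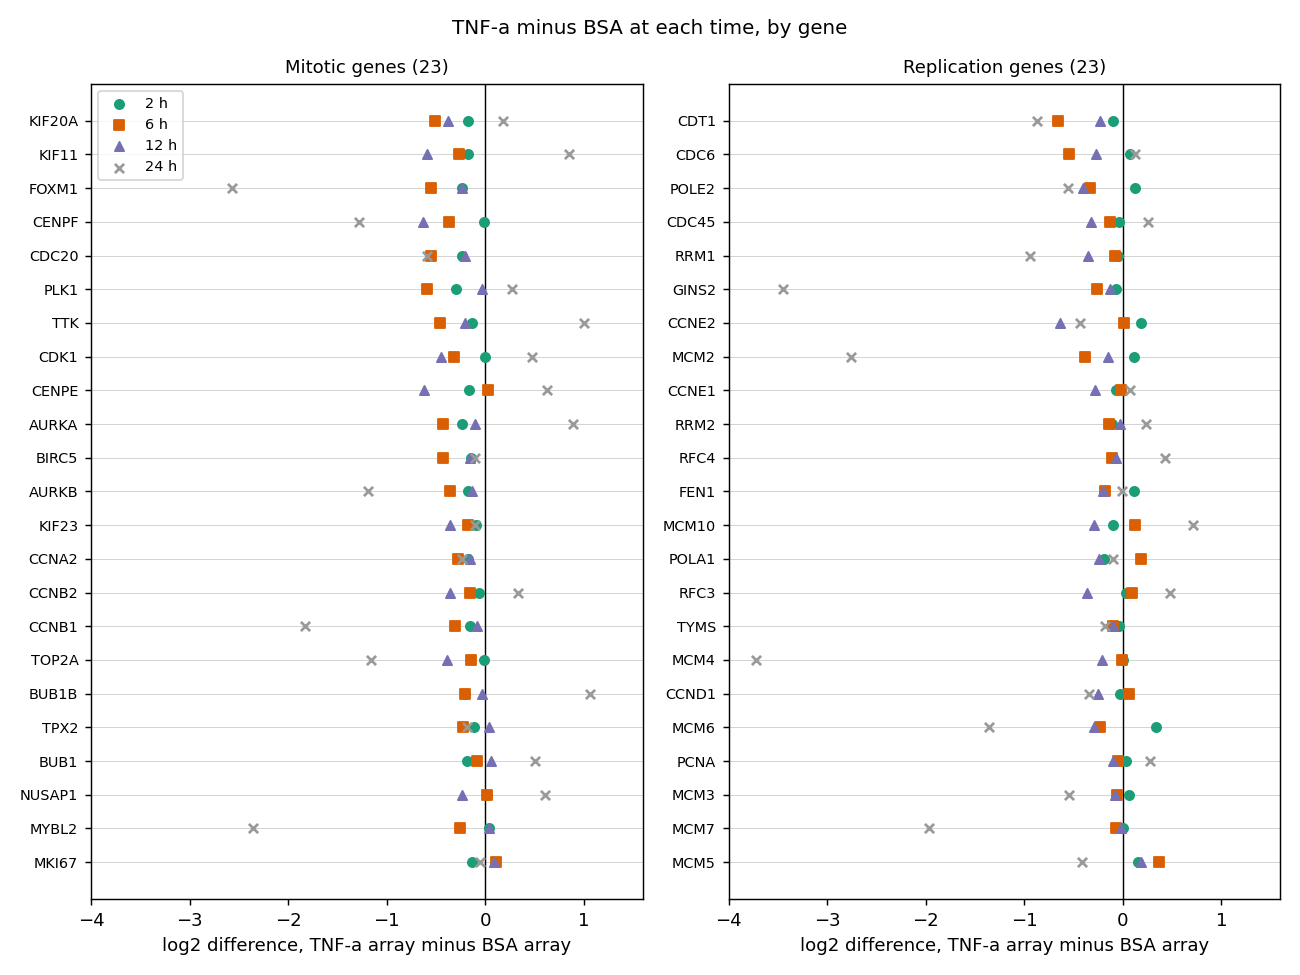
TNF-a minus BSA (log2, horizontal axis) for each mitotic gene (left) and replication gene (right), with 1 symbol per time and genes ordered by their mean over 2, 6 and 12 h. At 2, 6 and 12 h all points lie within 1 of 0, with most mitotic points to the left of it, and at 24 h the points spread from −3.72 to 1.07.

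The replication genes stayed level with BSA at 2 h and were lower later. Their median difference was 0.00, −0.08 and −0.23 at 2, 6 and 12 h. Lower values were seen for 11, 17 and 22 of 23, against 10402, 9667 and 9272 of the 18239 genes. Lower at all 3 times were 8 of 23, among them RRM1, RRM2, TYMS and CDC45, against 22.4% of all genes. The one gene higher at all 3 was MCM5, a subunit of the MCM helicase, at 4.01, 4.07, 3.96 and 3.44 with TNF-a and 3.85, 3.70, 3.77 and 3.85 with BSA, which is near the floor of the arrays.

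From 2 to 12 h, the licensing factors CDT1 and CDC6 differed most at 6 h. CDT1, which loads the MCM helicase onto origins, was 8.18, 8.0, 7.61 and 7.27 with TNF-a and 8.28, 8.65, 7.84 and 8.14 with BSA. CDC6, its partner in loading, was 9.98, 9.29, 9.54 and 10.47 with TNF-a and 9.90, 9.83, 9.81 and 10.35 with BSA. At 6 h CDT1 was lower by 0.66 and CDC6 by 0.54, and the 3 probe sets of CDT1 lay within 0.04 of each other there. MCM2, of the helicase, was 8.32, 8.03, 7.93 and 5.69 with TNF-a and 8.20, 8.42, 8.08 and 8.46 with BSA. MCM6, of the same ring, was 9.0, 8.45, 8.47 and 6.45 with TNF-a and 8.67, 8.68, 8.76 and 7.81 with BSA. MCM2 and MCM6 were higher with TNF-a at 2 h, by 0.11 and 0.33, and lower at 6 and 12 h. MCM10, which helps fire origins, was 7.35, 6.97, 6.97 and 8.43 with TNF-a and 7.45, 6.85, 7.25 and 7.72 with BSA.

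Among the cyclins, CCNE2, cyclin E2, stood out at 12 h. It was 7.40, 7.42, 6.18 and 7.45 with TNF-a and 7.21, 7.41, 6.82 and 7.89 with BSA, so that the 12 h array was the lowest in each arm. CCNE1, cyclin E1, was 6.03, 6.90, 5.96 and 6.61 with TNF-a and 6.11, 6.92, 6.24 and 6.54 with BSA. CCND1, cyclin D1, was 8.33, 8.88, 8.50 and 7.65 with TNF-a and 8.35, 8.82, 8.75 and 7.99 with BSA. All 3 cyclins were lower with TNF-a at 12 h, by 0.64, 0.28 and 0.25.

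Of the polymerase and nucleotide genes, POLE2 and RRM1 differed more than PCNA and RRM2 at 12 h. POLE2, a subunit of polymerase epsilon, was 8.15, 7.65, 7.78 and 7.40 with TNF-a and 8.02, 7.98, 8.18 and 7.96 with BSA. PCNA, the sliding clamp, was 11.27, 11.05, 10.91 and 11.60 with TNF-a and 11.24, 11.10, 11.01 and 11.32 with BSA. RRM2, the regulated subunit of ribonucleotide reductase, was 9.76, 10.00, 9.90 and 10.04 with TNF-a and 9.87, 10.14, 9.94 and 9.80 with BSA. From 2 to 12 h PCNA stayed within 0.10 and RRM2 within 0.14 of BSA, while POLE2 was lower by 0.33 and 0.40 at 6 and 12 h. RRM1, the large subunit of ribonucleotide reductase, was lower by 0.35 at 12 h. The clamp loader subunits RFC3 and RFC4, POLA1 of polymerase alpha, and MCM3, MCM4 and MCM7 were between 0.19 higher and 0.36 lower from 2 to 12 h.

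In limma, with the time as a factor and Benjamini-Hochberg adjustment over all genes, 0 of the 46 passed an adjusted p of 0.05 over the 4 times, where 3 of all genes (0.0164%) did. At an unadjusted p under 0.05 there were 4 members, all lower with TNF-a, and 1369 of all genes. They were CDC20 (−0.40 ± 0.11, SE over 4 pairs of arrays), CDT1 (−0.46 ± 0.15), CCNA2, the S and G2 cyclin A2 (−0.21 ± 0.08), and CENPF (−0.57 ± 0.22), with adjusted p = 0.609 in limma for CDC20 and 0.652 for the other 3. Without the 24 h arrays 0 members passed, where 67 of all genes (0.367%) did, and 13 mitotic genes and CDT1 were lower, and MCM5 higher, at an unadjusted p under 0.05, as were 2554 of the 18239 genes in either direction. KIF20A then had the lowest adjusted p, 0.229 in limma (−0.35 ± 0.09, SE over 3 pairs, lower in 3 of 3).

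In the BSA arm itself the mitotic genes were lower at 24 h than at 2 h, and the replication genes as a group were not. The mitotic median was −0.15, 0.10 and −0.59 at 6, 12 and 24 h relative to 2 h, and the replication median 0.01, −0.10 and 0.00. At 24 h, 22 of 23 mitotic genes and 11 of 23 replication genes were below 2 h, against 55.1% of all genes. At least 2-fold lower were 5 mitotic genes (KIF20A, CDC20, AURKB, AURKA and TPX2) and 0 replication genes, against 1.83% of all genes. At 6 h 1 mitotic gene, MKI67, and at 12 h none of the 46 was 2-fold lower, against 0.965% and 0.345%. On the BSA array at 24 h ACTB read 3.47 higher at its 3′ than its 5′ end, against 2.59 to 3.09 on the arrays from 2 to 12 h, while for GAPDH the gap was 0.21, and KRT8 was 6.37 against 8.59 to 8.91 on the earlier BSA arrays. The part of RNA quality in the 24 h values was not tested.

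**Figure D2:**
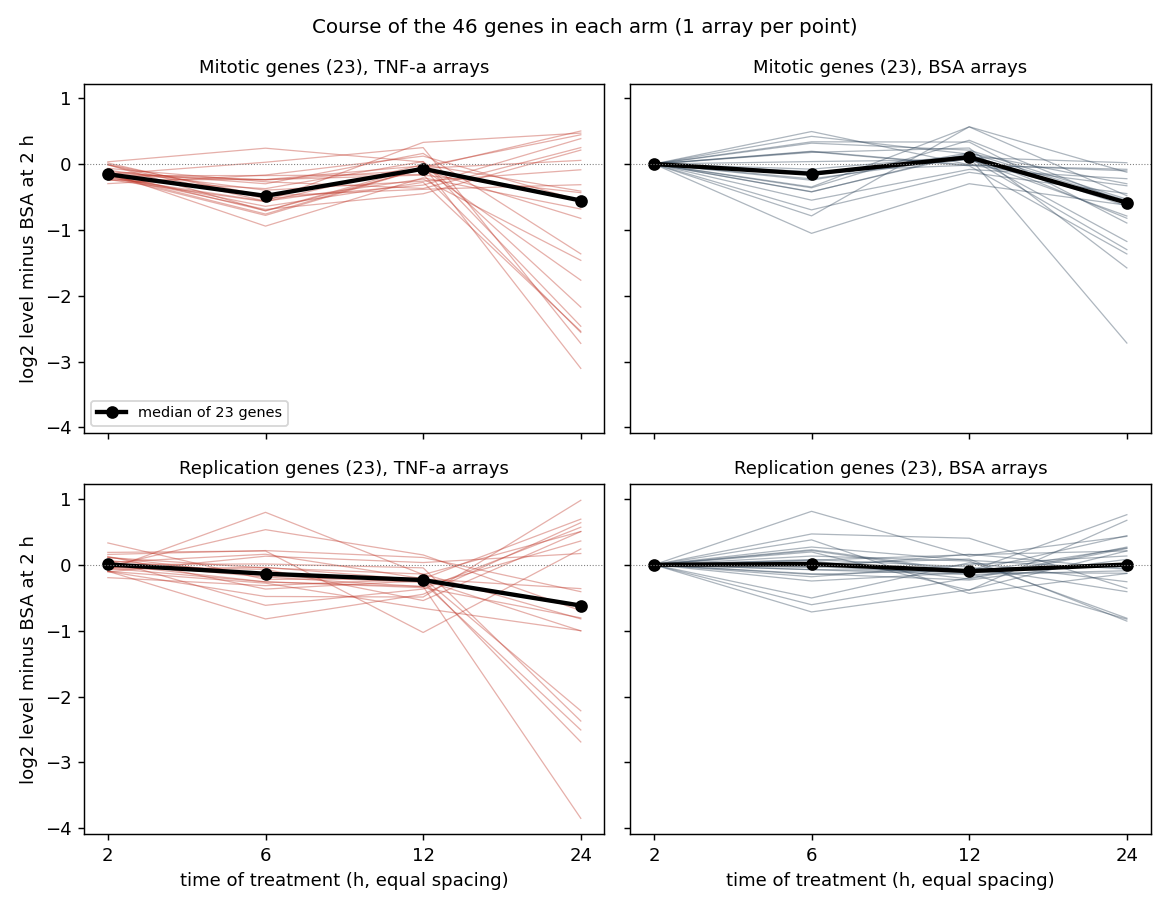
Levels relative to the BSA array at 2 h (log2, vertical axis) over time in the TNF-a arm (left) and BSA arm (right), for mitotic genes (top) and replication genes (bottom), with 1 thin line per gene and the median in black. In the BSA arm the mitotic median ends at −0.59 and the replication median at 0.00, and lines fan out in the TNF-a arm at 24 h.

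The fall from 2 to 24 h that both arms shared passed the test for 6 of the 46 genes. In the additive limma model, 4 mitotic and 2 replication genes fell at 24 h and 0 rose, against 1.07% of all genes falling and 2.2% rising. KIF20A fell by 2.54 ± 0.19 (SE, 2 arrays at 24 h against 2 at 2 h, adjusted p = 0.0358 in limma), with differences of −2.37 in the TNF-a arm and −2.72 in the BSA arm. CDC20 fell by 1.76 ± 0.15 (limma adjusted p = 0.0358), with −1.93 in the TNF-a arm and −1.58 in the BSA arm. In both arms these 2 genes stood at their lowest at 24 h, below every earlier array.

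AURKB, the kinase of the chromosomal passenger complex, was 7.73, 7.73, 7.75 and 5.35 with TNF-a and 7.91, 8.09, 7.88 and 6.54 with BSA, and fell by 1.87 ± 0.28 (limma adjusted p = 0.0424). TPX2, which activates AURKA on the spindle, was 8.58, 8.39, 8.85 and 7.33 with TNF-a and 8.69, 8.62, 8.82 and 7.52 with BSA, and fell by 1.21 ± 0.12 (limma adjusted p = 0.0358). The 24 h arrays of both arms lay below all earlier arrays for these genes too. TYMS, thymidylate synthase, was 11.46, 11.37, 11.27 and 10.49 with TNF-a and 11.50, 11.47, 11.37 and 10.67 with BSA, and fell by 0.90 ± 0.11 (limma adjusted p = 0.0358). FEN1, the nuclease that trims Okazaki fragments, was 10.62, 10.46, 10.37 and 9.69 with TNF-a and 10.51, 10.64, 10.57 and 9.70 with BSA, and fell by 0.87 ± 0.13 (limma adjusted p = 0.0411). With MCM6, these were the replication genes lowest relative to 2 h in the BSA arm, at −0.83, −0.81 and −0.85 for TYMS, FEN1 and MCM6. Leaving out the 6 h arrays or the 12 h arrays, or weighting the arrays, left 0 of the 6 past the threshold, with the same estimates and limma adjusted p from 0.0992 to 0.177. Averaging over probe sets, TYMS was −1.35 and FEN1 −1.91, neither past the threshold (limma adjusted p = 0.0707 and 0.147).

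**Figure D3:**
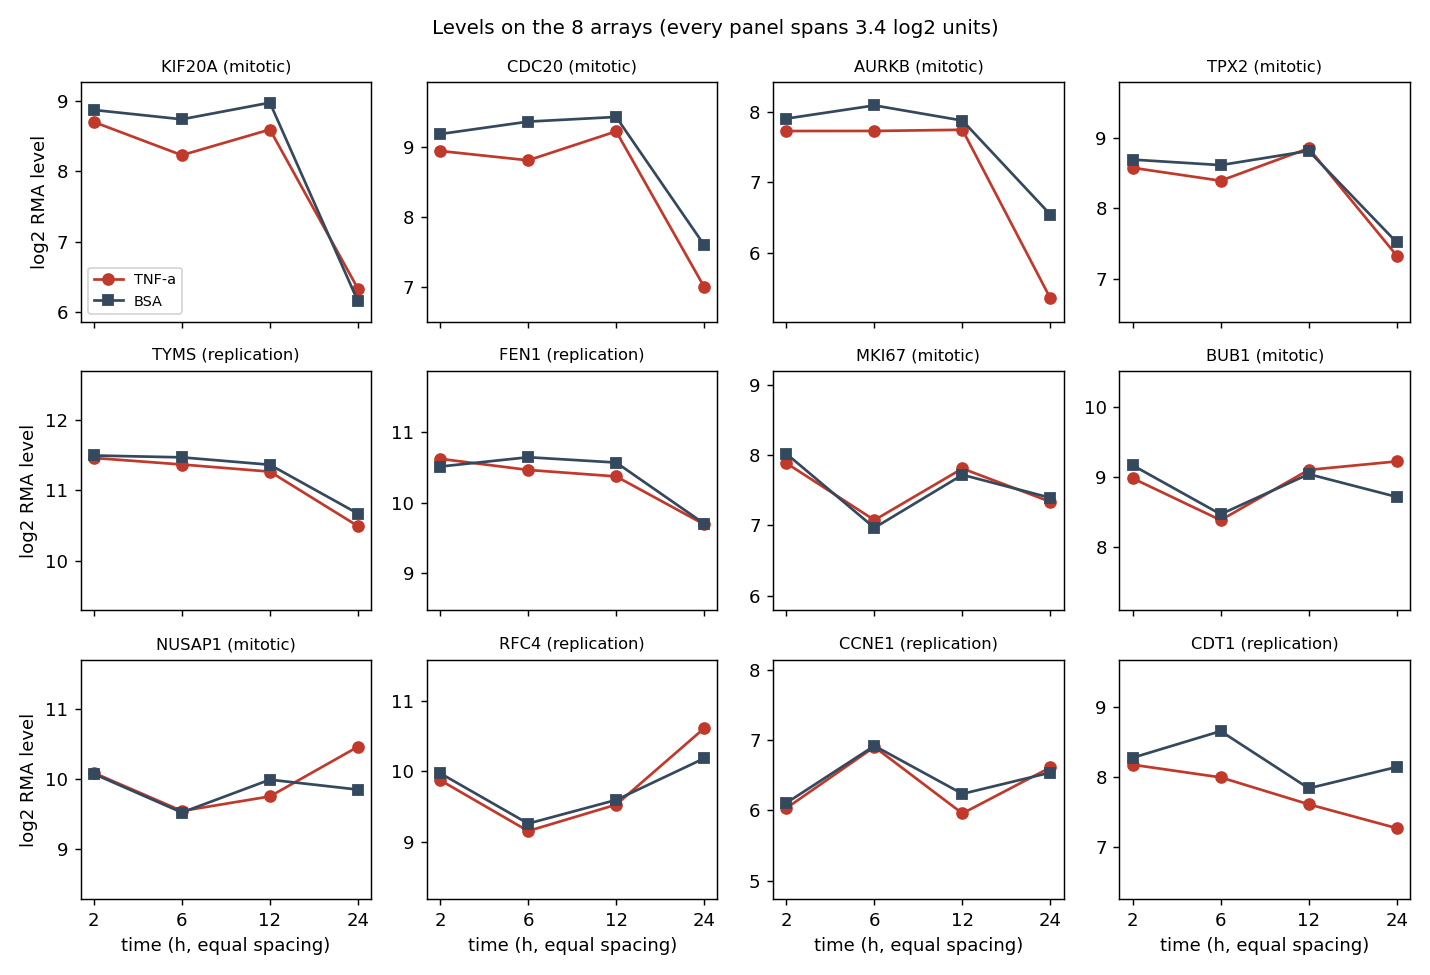
Log2 levels of 12 genes on the 8 arrays against time, TNF-a in red circles and BSA in dark squares. KIF20A, CDC20, AURKB, TPX2, TYMS and FEN1 are lowest at 24 h in both arms, MKI67, BUB1, NUSAP1 and RFC4 dip at 6 h in both, CCNE1 peaks at 6 h in both, and CDT1 is lower with TNF-a at every time.

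Other members ended the BSA arm at their highest on their brightest probe sets. CCNE2, CDC6, GINS2, a subunit of the helicase activator GINS, and RFC4 were higher at 24 h than at 2 h by 0.68, 0.44, 0.76 and 0.21 with BSA. The other probe set of CDC6, of mean 8.71, disagreed: it was lower by 0.14 and at its highest at 2 h. The 12 h arrays had held the lowest value of CCNE2 in this arm. MCM2 (0.25) and MCM10 (0.27) were also higher, while MCM6 and MCM7 were lower by 0.85 and 0.41. The MCM ring subunits thus did not keep 1 course in the BSA arm. Of the mitotic genes, KIF23 alone was not lower (0.02), and CCNB2, cyclin B2, MYBL2 and CENPE differed by −0.08, −0.10 and −0.12. A probe set shared by AURKA and its pseudogene AURKAP1, left out of the fits, was lower by 1.25 in the BSA arm, close to AURKA's own 1.30.

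At 6 h a different set of mitotic genes dipped in both arms. MKI67 was 7.89, 7.08, 7.81 and 7.34 with TNF-a and 8.02, 6.97, 7.72 and 7.39 with BSA. Over both arms it was lower at 6 h than at 2 h by 0.93, BUB1, a spindle checkpoint kinase, by 0.65, and NUSAP1, a spindle microtubule protein, by 0.55. A dimmer probe set of MKI67, of mean 6.08, was instead higher at 6 h by 0.70 with BSA (−0.45 with TNF-a). RFC4 was lower by 0.72 and CCNE1 higher by 0.84. Over the 4 times 0 members passed at 6 h, where 0.0% of all genes did and 1468 had an unadjusted p under 0.05, with 3 members lower and 2 higher at that level. Without the 24 h arrays these 4 genes fell and CCNE1 rose, against 3.1% of all genes falling and 2.13% rising, with limma adjusted p = 0.0208 for MKI67, RFC4 and CCNE1, 0.0310 for BUB1 and 0.0473 for NUSAP1. With the mean of probe sets over the 4 times the differences were −0.53 for MKI67, −0.28 for RFC4 and 0.48 for CCNE1. CENPE, the kinetochore motor, dipped by 0.59 with TNF-a and 0.79 with BSA without passing. CCNB1, FOXM1 and MYBL2 were not below 2 h at 6 h in either arm. At 12 h 0 members passed over the 4 times, where 0.0% of all genes did and 816 had an unadjusted p under 0.05, and 0 without the 24 h arrays, where 0.609% did.

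No member passed a test of a steady trend over time. The slope with log2 hours in the BSA arm, and the TNF-a slope minus the BSA slope, passed for 0 of the 46 and for 0.0% of all genes each. At an unadjusted p under 0.05 there were 0 members for the BSA slope and 1 for the difference, RRM1 (−0.23 ± 0.08 per doubling of time, limma adjusted p = 0.827), and 654 and 675 of all genes. The mitotic genes did not fall evenly: without the 24 h arrays their median BSA slope was 0.03 per doubling of time, and with them −0.12.

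At 24 h the TNF-a array gave wide and conflicting values. Relative to BSA, 6 mitotic and 5 replication genes were at least 2-fold lower and 1 mitotic gene, BUB1B, higher by 1.07, against 6.67% of all genes lower and 6.1% higher. FOXM1 differed by −2.57, MYBL2 by −2.36, GINS2 by −3.45, MCM2 by −2.76 and MCM4 by −3.72, while TTK and AURKA were higher by 1.0 and 0.89. The probe set shared by AURKA and AURKAP1 went the other way at 24 h, at −1.08. The median of all genes was 0.20 at this time. Probe sets of 1 gene disagreed there: over the 31 genes with several, the median range between probe sets was 1.76 at 24 h, against 0.13, 0.19 and 0.20 at 2, 6 and 12 h. The range was over 1 for 22 of 31 genes at 24 h, and for 25 genes with several probe sets of mean 5 or more it was over 1 for 20. TOP2A, a DNA topoisomerase, differed by −1.16, −1.24 and −4.74 on its 3 probe sets, and FEN1 by −0.01, −2.58 and −3.91. In the BSA arm the probe sets of FEN1 at 24 h lay at −0.81, −0.68 and −0.71 relative to 2 h, and both of TYMS at −0.83. Not every gene agreed so in that arm: those of RRM2 lay at −0.07 and −0.68, and those of CDC6 at 0.44 and −0.14.

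**Figure D4:**
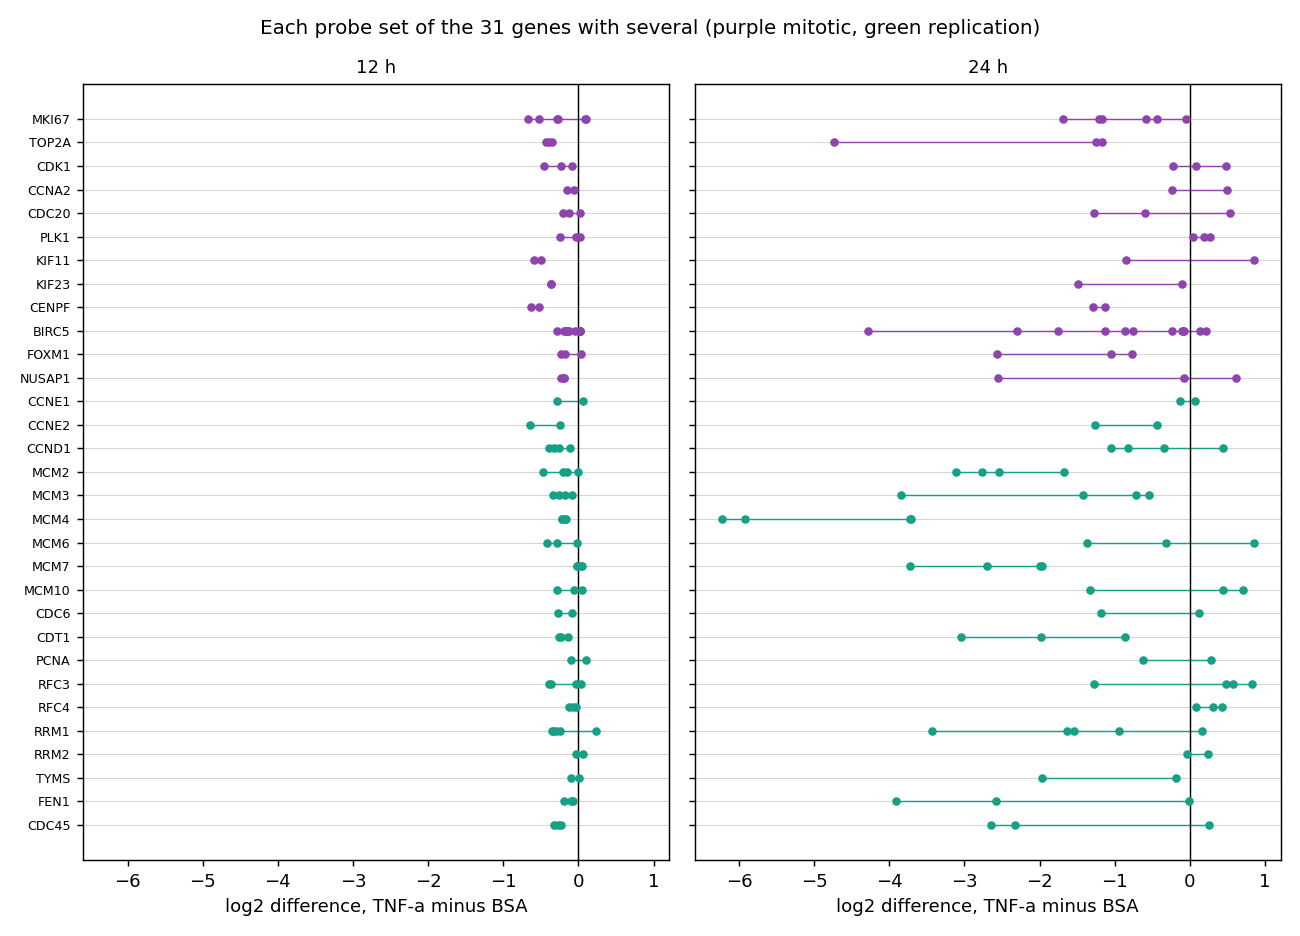
TNF-a minus BSA (log2, horizontal axis) for every probe set of the 31 genes with more than 1, at 12 h (left) and 24 h (right), joined by gene. The median range within a gene is 0.20 at 12 h and 1.76 at 24 h.

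Other genes of the cycle were read in the same way. Of 39 other mitotic genes measured, the median TNF-a minus BSA was −0.12, −0.13 and −0.24 at 2, 6 and 12 h, and 32, 29 and 34 were lower. Of 34 other replication genes it was −0.04, −0.17 and −0.15, with 23, 25 and 30 lower. Of all 18239 genes, 10402, 9667 and 9272 were lower at these times. In the BSA arm 32 of the 39 and 11 of the 34 were below 2 h at 24 h, against 55.1% of all genes. In the fit over the 4 times 1 of each fell at 24 h in both arms and 0 rose, against 1.07% of all genes falling and 2.2% rising: HJURP, the chaperone of centromeric CENPA, by 0.99 ± 0.12, and ASF1B, a histone chaperone of replication, by 1.06 ± 0.11 (limma adjusted p = 0.0358 each). Neither list had a gene past the threshold for TNF-a against BSA. At 6 h without the 24 h arrays 9 other mitotic genes fell, with KIF14 by 1.38 ± 0.17 and HMMR by 0.86 ± 0.10 (limma adjusted p = 0.0208 each), and 3 other replication genes fell, against 3.1% of all genes.

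Of the 6 CDK inhibitors and 5 p53 targets measured, 3 genes had higher values with TNF-a at 2, 6 and 12 h alike, without passing. CDKN2B (p15), an inhibitor of CDK4 and CDK6, was 7.92, 8.17, 8.14 and 8.67 with TNF-a and 7.26, 6.36, 7.37 and 6.92 with BSA. CDKN1A (p21), the p53-induced inhibitor of CDK2, was 9.18, 9.83, 8.92 and 7.77 with TNF-a and 8.64, 8.69, 8.22 and 8.32 with BSA. GADD45A, a stress-induced inhibitor of CDK1, was 10.05, 9.74, 8.87 and 10.82 with TNF-a and 9.34, 7.91, 7.87 and 10.81 with BSA. All 3 were higher with TNF-a at 2, 6 and 12 h, most at 6 h (1.81, 1.14 and 1.82), with limma adjusted p = 0.194, 0.121 and 0.153 without the 24 h arrays. Of the 6 CDK inhibitors measured, CDKN2B and CDKN1A were the 2 higher at all 3 times, none passed, and the median difference over the 6 was 0.24, 0.04 and 0.01 at 2, 6 and 12 h. Among 5 p53 targets, GADD45A was the 1 higher at all 3 times, and the median difference was −0.01, −0.09 and −0.18. TP53I3, an oxidoreductase, was lower by 0.23, 0.43 and 0.51, and none of the 5 passed.

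The kinases and RB genes gave a mixed picture. CDK6, the partner of cyclin D1, was 5.54, 7.14, 7.27 and 7.0 with TNF-a and 5.40, 5.48, 5.96 and 6.21 with BSA, higher at all 4 times (limma adjusted p = 0.609). MYC, a growth factor-induced transcription factor, was 11.36, 10.26, 9.98 and 9.53 with TNF-a and 11.04, 9.86, 9.56 and 9.82 with BSA. In both arms, at 24 h relative to 2 h, it fell by 1.52 ± 0.21 (limma adjusted p = 0.0375), the 1 of 11 kinase and growth genes to pass over the 4 times. Without the 24 h arrays, CCND3 and CDC25B rose and CDC25C and MYC fell at 6 h. In that fit 2.13% of all genes rose and 3.1% fell at 6 h. MYC was also lower at 12 h than at 2 h (−1.43 ± 0.09, limma adjusted p = 0.0142), where 0.609% of all genes passed. Of 18 RB, E2F and DREAM genes none passed for TNF-a or over the 4 times, and E2F1 and E2F7 differed by −0.39 and 0.23 at 6 h. With BSA 3 of the 18 were below 2 h at 24 h, against 55.1% of all genes. Without the 24 h arrays E2F5, a repressive E2F, rose at 6 h by 0.78 ± 0.10 (limma adjusted p = 0.0228) and LIN54, the DREAM subunit that binds the CHR, fell by 0.64 ± 0.09 (0.0292). E2F5 was also higher at 12 h than at 2 h, by 0.88 ± 0.10 (limma adjusted p = 0.0434).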

How the data were processed

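Each of the 8 arrays held 49386 probe sets of log2 values that the authors deposited, and per the submitters' processing notes RMA made them. RMA corrects background, equalises distributions and summarises probes. For RMA, the software and version are not given in the sources here. All 8 columns matched a sample. The platform's table gave 45253 probe sets with 1 symbol. Another 1327 had several, 2713 none and 93 were controls, all left out. Of the Entrez identifiers 18180 matched RefSeq and 62 did not. No further normalisation or filter was applied. Arrays have no read depth, so their number limits precision.

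Models were fitted to all 18239 genes in limma 3.58.1 (R 4.3.3; two-sided eBayes test after lmFit), with p-values adjusted by Benjamini-Hochberg over all genes. The first held treatment and time as a factor (3 residual degrees of freedom), so each TNF-a array was set against the BSA array of its time. The second held treatment, log2 hours and their product (4). Differences at single times had no test. Models were tested on simulated data. Alternatives were the mean of probe sets, every probe set, each time left out, quantile normalisation, median centring, a filter at mean 4, array weights, no time factor, the BSA arrays alone, and hours unlogged.

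The members and lists were chosen with earlier results of these data known. A set of 18 members is always given on all arrays, with the 3 of each group with the largest mean size of TNF-a minus BSA over 2, 6 and 12 h, the 3 with the widest BSA range, and any past a test, 25 in all. For other lists up to 4 genes are named, or those past a test.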

Additional observations from a re-analysis of the deposited data

Results flagged for a closer look

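Within the 4 arrays of an arm, 1 array lay far from the other 3 for 14 of 54 series of values tested (25 genes and the 2 group medians, in each arm). Chance sets apart about 1 in 20 such series, but some of the 25 genes were named for a wide range in the BSA arm or for passing the 24 h test, so the 14 are a description and are not set against that share. The arrays of an arm are different times and not replicates. Of the 14, 6 were on the TNF-a array and 7 on the BSA array at 24 h. In the TNF-a arm at 24 h, CCNB1 was at 7.24, FOXM1 at 4.92, MYBL2 at 5.35, MCM2 at 5.69, MCM5 at 3.44 and AURKB at 5.35. At 12 h CCNE2 was at 6.18 in the TNF-a arm, against 7.40 to 7.45 at the other times. In the BSA arm at 24 h, CDC20 was at 7.60, TYMS at 10.67, KIF20A at 6.15, AURKB at 6.54, FEN1 at 9.70, MCM6 at 7.81 and TPX2 at 7.52. Every one of the 14 was the lowest of its arm. KIF20A was at 8.74 to 8.98 on the other BSA arrays. AURKB was set apart at 24 h in both arms. No group median was.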

How the results depend on the processing

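The numbers of members past the test moved with the processing at 6 and 24 h. At 6 h the count that fell was 4 and the count that rose 2 with array weights (which came out equal for both arrays of a time), and leaving out 1 time gave 0 to 4 and 0 to 1. Without the 24 h arrays these counts were 4 and 1, against 3.1% of all genes falling and 2.13% rising. For array weights the shares of all genes are not given here, so the 4 and 2 are not set against them. At 24 h the count that fell was 0 with array weights, and 0 throughout when the 6 or 12 h arrays were left out. Without the 2 h arrays there is no difference from 2 h to compute. The counts for TNF-a against BSA, 12 h and both slopes stayed at 0 under every alternative run. The median TNF-a minus BSA at 24 h was −0.19 for mitotic and −0.56 for replication genes with the mean of probe sets, and −0.24 and −0.94 over single probe sets. The mitotic median in BSA at 24 h against 2 h was −0.72 after quantile normalisation and −0.45 over single probe sets. The other 64 alternatives for the medians moved by under 0.1. For single genes 0 of 117 alternatives changed direction, 20 lost and 10 gained a call. Without a time factor, 0 members passed for TNF-a, so the pairing by time changed no call of these genes. The values rest on 1 array per treatment and time.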
